A study of Mus musculus with 6 samples.

Results

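The genes described here encode ubiquitin-conjugating enzymes, the E2 enzymes of the ubiquitin system, and were taken as every gene whose symbol begins with Ube2 in the annotation of the array. There were 33 such genes among the 22180 genes with a transcript cluster of 1 symbol, and 26 of the 33 had a mean signal high enough to be tested, among 11094 tested genes. The family was singled out because Ube2n read higher in the knockout, so the genotype difference of Ube2n is given as a description, with no test. A gene with several clusters is represented by its brightest one. One gene that the symbol brings in, Ube2cbp, encodes a binding partner of an E2 and not an E2 enzyme.

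Haematopoietic stem cells (HSCs) came from the bone marrow of C57Bl/6 mice at steady state. They were sorted as lacking lineage markers and surface Flt3 while carrying Sca1 and the receptor Kit. There were 3 arrays of wild type cells and 3 arrays of cells from Chrm1-/- mice, which lack a receptor for acetylcholine. The question behind the series is how this receptor, through the brain and glucocorticoid hormones, prepares HSCs for release from the marrow. The sources used here do not give the age or sex of the mice, how the Chrm1 allele was made, or whether replicates are separate animals. The spread behind each p-value is thus that between these arrays and may be technical. RNA of many cells was measured together, so more cells with a transcript and more of it per cell cannot be told apart. Values are log2 signals of an Affymetrix array, on which 1 unit is a doubling. Because probes differ in brightness, levels of different genes are not set against each other.

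Ubiquitin is a small protein that is attached to other proteins in a relay. An E1 enzyme activates it, an E2 enzyme carries it on a cysteine, and an E3 ligase brings the E2 to the target. The E2 often sets how ubiquitins are linked into chains: chains through lysine K48 send proteins to the proteasome, whereas chains through lysine K63 serve as scaffolds in immune signalling and DNA repair. Ube2n, also called Ubc13, is the E2 dedicated to K63 chains. It works as a dimer with Ube2v1 or Ube2v2, E2-like partners that lack the active-site cysteine, and is known to be needed for blood formation in mice.

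The upstream sequences of Ube2n and Ube2s are shown because these genes lie near the upper and at the lower end of the family's genotype differences. They are the 250 bases before the annotated start, credited to RefSeq on build GRCm38.p6, written 5′ to 3′ on the strand of the gene. The Ube2n window lies at chr10:95514912-95515161 on the plus strand, and that of Ube2s at chr7:4812341-4812590 on the minus strand. Capitals mark matches on either strand to GGGCGG (GC box), CCGGAAG (ETS motif) or AGAACA (core motif of the glucocorticoid response element).
Ube2n: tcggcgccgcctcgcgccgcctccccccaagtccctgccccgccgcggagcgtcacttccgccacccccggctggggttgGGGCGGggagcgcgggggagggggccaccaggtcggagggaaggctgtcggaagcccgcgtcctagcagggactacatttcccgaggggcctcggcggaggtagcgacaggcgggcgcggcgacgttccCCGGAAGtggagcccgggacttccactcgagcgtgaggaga
Ube2s: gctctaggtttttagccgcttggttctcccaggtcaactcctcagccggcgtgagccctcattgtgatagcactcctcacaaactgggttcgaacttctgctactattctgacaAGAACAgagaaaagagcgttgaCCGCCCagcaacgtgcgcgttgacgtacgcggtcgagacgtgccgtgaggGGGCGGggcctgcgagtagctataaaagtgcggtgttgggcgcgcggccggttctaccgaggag

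The Ube2n window held 1 GC box, with its first base at position -170 from the start, and 1 ETS motif at -41. It had a GC content of 74.8% and 32 CpG dinucleotides. The Ube2s window held 2 GC boxes, at -114 and -64, and 1 glucocorticoid core motif at -136, with a GC content of 58.4%. RefSeq windows were found for 28 of the 33 family genes, 37 windows in all, and their median GC content was 67.6%, against 52.4% over 32851 windows of all genes. The GC box was present in 67.6% of the family's windows and 32.7% of all windows, and the ETS motif in 21.6% and 6.91%. The core motif AGAACA was in 5.41% and 16.1%. The CCAAT box, searched as CCAAT, was in 21.6% and 33.8%, the E-box CACGTG in 5.41% and 6.02%, and the cAMP response element TGACGTCA in 2.7% and 1.55%. A letter match is a description of the window and not a binding site, and GC-rich motifs are more frequent where GC content is high.

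The receptor gene and the sort were checked first. Chrm1, in the brighter of its 2 clusters, read 7.45, 7.44 and 7.67 on the wild type arrays and 8.16, 7.52 and 7.58 on the Chrm1-/- arrays. The means were 7.52 and 7.75, so the signal was not lower in Chrm1-/-. This cluster therefore gave no check of the genotype, since the sources used here do not say which part of the gene was deleted. Values of the other cluster are not given here. Kit read between 10.79 and 10.99 on the 6 arrays and Cd34 between 11.14 and 11.37. The Flt3 transcript read between 9.87 and 10.29 on all 6 arrays, well above the signal needed for testing, in cells sorted as lacking the Flt3 protein at the surface. Procr, a surface receptor used to purify HSCs, read 8.40 to 8.50 in wild type and 8.16 to 8.24 in Chrm1-/-. All 7 T and NK cell markers and all 10 myeloid markers on the array had means over the 6 arrays below the signal needed for testing, 6.77. Single arrays lay above it for Cd3g (7.16) and Adgre1 (6.79) in Chrm1-/- replicate 1. In wild type replicate 3 this held for Cd4 (6.91), Adgre1 (6.88) and Ngp (7.32). Of 6 B cell markers 3 had means above it, Ptprcap, Pax5 and Cd79b, with a median genotype difference of 0.05. Cd79a, with a mean below it, read 7.77 in wild type replicate 3 and 7.25 in Chrm1-/- replicate 1, and 6.05 to 6.40 on the other arrays. Cd79b read 9.26 and 9.11 on the same arrays, and 8.32 to 8.67 on the others. Ptprcap was highest in wild type replicate 1, at 9.21, and Pax5 read 7.40 in Chrm1-/- replicate 1, within the range of the others. The 3 erythroid markers on the array, Epor, Klf1 and Slc4a1, had a median difference of 0.20. The list means ran from 6.94 to 7.48 in wild type and 7.03 to 7.28 in Chrm1-/- for B cell markers, and from 7.39 to 7.47 and 7.45 to 7.60 for erythroid markers. Their part in the results below was not tested.

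Ube2n stood apart from nearly all of its family. It read 9.22, 9.01 and 9.05 on the wild type arrays and 9.94, 10.28 and 9.85 on the Chrm1-/- arrays. The lowest Chrm1-/- array lay 0.63 above the highest wild type array, so the groups did not overlap. The means were 9.09 ± 0.11 (SD, n = 3) and 10.02 ± 0.23 (SD, n = 3), a difference of 0.93 ± 0.15 (SE) on the log2 scale, or 1.91-fold. Over all tested genes 0.478%, 53 in number, had a difference at least as high. On leaving out each array in turn the difference ran from 0.80 to 1.02. The family was chosen on this value, so these figures describe the difference and are no support for it. The gene has 1 cluster on the array.

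Ube2v2, the partner of Ube2n known from DNA repair and also called Mms2, had a similar mean difference with a far wider spread. It read 9.74, 9.18 and 8.26 in wild type and 9.17, 10.16 and 10.79 in Chrm1-/-. Chrm1-/- replicate 1 lay within the wild type range, and wild type replicate 3 was the lowest of the 6. The difference of 0.98 ± 0.52 (SE) had a 95% interval from -0.29 to 2.25 and did not pass, with an adjusted p of 0.996 in limma and an unadjusted p of 0.108. It was 0.58 without wild type replicate 3 and 1.42 without Chrm1-/- replicate 1, where the unadjusted p in limma was 0.0328 and the adjusted p 0.989. Ube2v1, the other partner, which supports the signalling role of Ube2n, read 6.29, 5.94 and 6.74 in wild type and 6.03, 6.02 and 6.34 in Chrm1-/-. Those signals lay below the 6.77 needed for testing, and its groups overlapped.

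**Figure D1:**
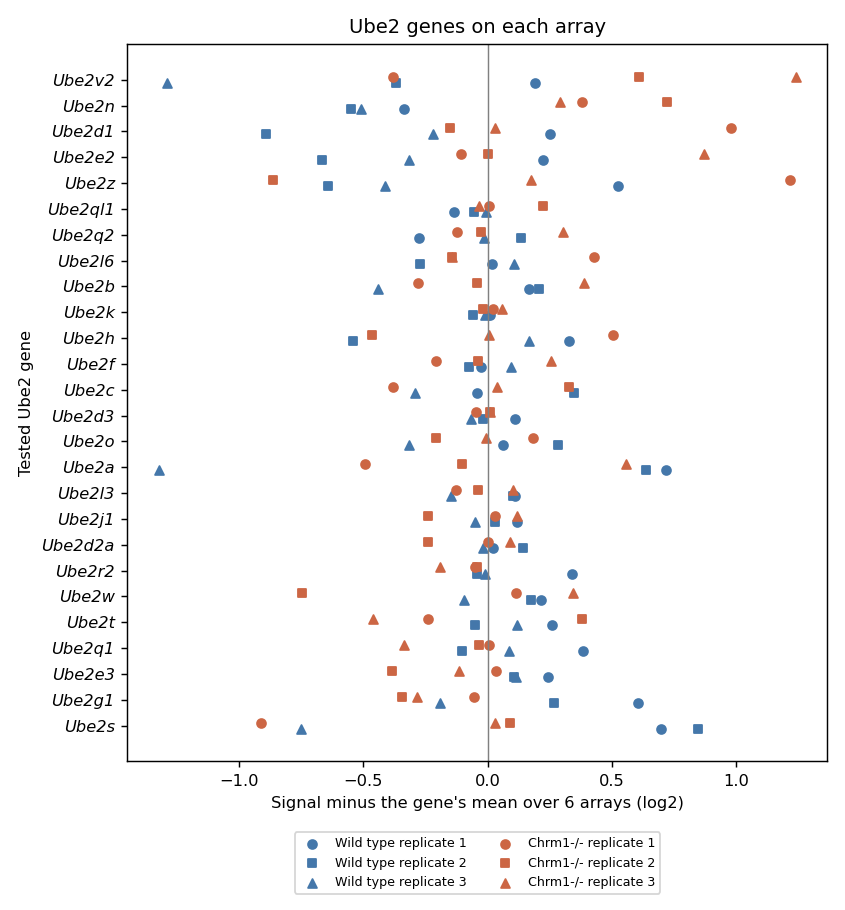
Each row is a tested Ube2 gene, ordered by genotype difference, and each point is 1 array, plotted as its signal minus the gene's mean over the 6 arrays (log2 units). Wild type arrays are blue and Chrm1-/- arrays orange, with a marker shape per replicate; only Ube2n, among the higher genes, and Ube2e3, among the lower, have groups that do not overlap, and the points of Ube2v2, Ube2z, Ube2a, Ube2d1 and Ube2s span the widest ranges.

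In limma, 0 of the 26 tested Ube2 genes passed an adjusted p of 0.05, as did 0% of all tested genes. At an unadjusted p under 0.05 there were 0 of the 25 other than Ube2n, where the share over all tested genes was 2.99%. Groups did not overlap for 1 of these 25, Ube2e3, against 5.79% over all tested genes. A difference of at least 1.5-fold was found for 1 of the 25, Ube2v2, against 4.31%. Of the 25, 11 read higher and 14 lower in Chrm1-/-, and their median difference was -0.02, beside 0.00 over all tested genes. The 11 include Ube2e2, which reached the signal needed for testing only through its Chrm1-/- mean. The counts over these 25 genes were thus near the background or below it. With Ube2n, on which the family was chosen, each of the 3 counts rises by 1 and nothing is read from them. The 95% interval of the difference lay within 1.5-fold in both directions for 11 of the 25, and reached beyond it for the remaining 14.

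The count at an unadjusted p under 0.05 depended on single arrays. Without wild type replicate 3 it was 2 of 25, Ube2g1 at -0.66 and Ube2s at -1.04, and the family's median difference was -0.13, beside 0.00 over all tested genes. The share of all tested genes at that threshold was 4.71% without this array. Without Chrm1-/- replicate 1 the count was also 2, Ube2e3 and Ube2v2, beside 4.14% of all tested genes, and without Chrm1-/- replicate 2 it was 1, Ube2t, beside 3.48% of all tested genes. Wild type replicate 3 was the highest array for 0 of the 25 genes and the lowest for 6, whereas over all tested genes it was the highest for 19.3% and the lowest for 20.3%. Chrm1-/- replicate 2 was also the lowest for 6, against 13.0% over all tested genes, and Chrm1-/- replicate 3 the highest for 7, against 17.4%. Wild type replicate 1 was the highest for 8 of the 25, against 17.0% over all tested genes.

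**Figure D2:**
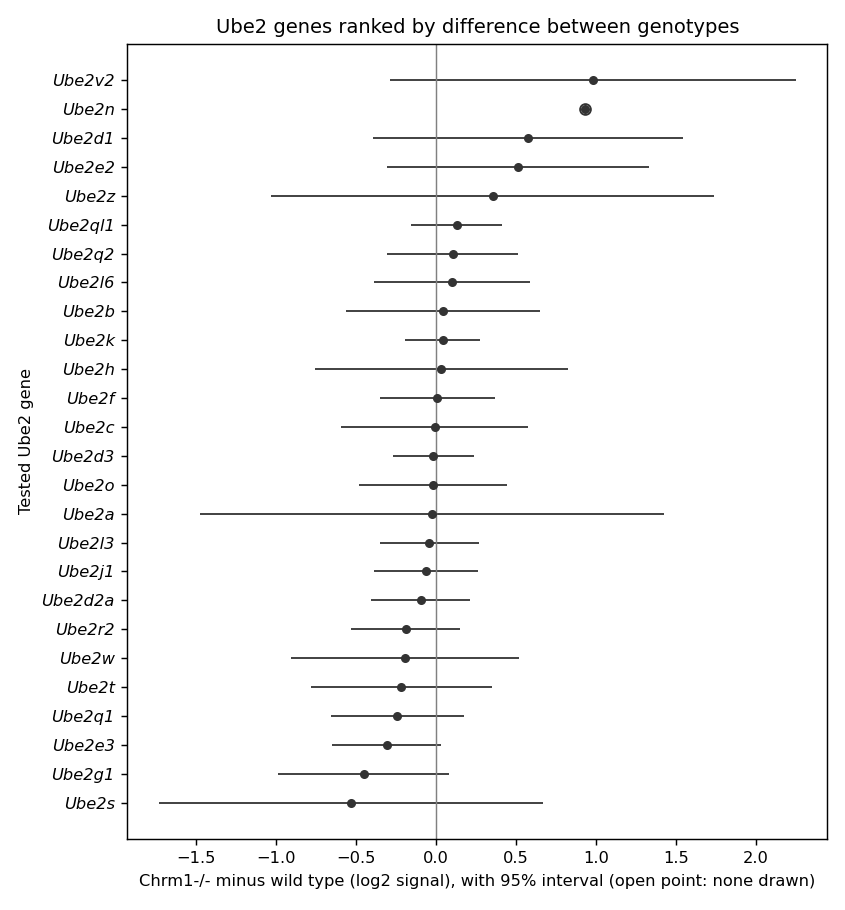
The points are genotype differences of the 26 tested Ube2 genes (Chrm1-/- minus wild type, log2 units) and the bars are 95% intervals from limma. Ube2v2 and Ube2n lie at the top at 0.98 and 0.93 and Ube2s at the bottom at -0.53; the interval of Ube2n is not drawn because the family was chosen on its value, and every interval drawn includes 0.

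The E2 enzymes that place a first ubiquitin or work with many ligases differed among themselves. Ube2d3, a broadly acting E2, read 11.82, 11.69 and 11.64 in wild type and 11.66, 11.72 and 11.72 in Chrm1-/-, so the groups overlapped. Its difference was -0.02, with a 95% interval from -0.27 to 0.23. The related Ube2d2a differed by -0.10 in the cluster used and by -0.03 and 0.01 in its other clusters. Ube2d1, of the same subfamily, read 9.61, 8.47 and 9.14 in wild type and 10.34, 9.21 and 9.39 in Chrm1-/-. It ranked next in the family after Ube2v2 and Ube2n, at 0.57, with an interval from -0.39 to 1.54 and overlapping groups.

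Ube2e3, an E2 with an extended amino terminus, read 10.31, 10.17 and 10.18 in wild type and 10.10, 9.68 and 9.95 in Chrm1-/-. The wild type arrays were all higher than the 3 Chrm1-/- arrays, the closest pair by a small margin. The difference of -0.31 ± 0.14 (SE) had an unadjusted p of 0.0676 and an adjusted p of 0.996 in limma, and so did not pass. The related Ube2e2 differed by 0.51, with an interval from -0.31 to 1.33. Its mean was 6.64 in wild type, below the signal needed for testing, and 7.15 in Chrm1-/-. It was thus tested only through its Chrm1-/- signal, and nothing is read from its direction. Ube2w, which attaches ubiquitin to the amino terminus of proteins, differed by -0.19, with Chrm1-/- replicate 2 at 6.18 and the other arrays between 6.83 and 7.27.

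The E2 enzymes of the anaphase-promoting complex, the ligase that drives exit from mitosis, did not pass either. Ube2c, which starts chains on the complex's targets, read 7.62, 8.01 and 7.37 in wild type and 7.28, 7.99 and 7.70 in Chrm1-/-. Its difference was -0.01, with an interval from -0.60 to 0.58, and the groups overlapped throughout. Ube2s, which extends those chains through lysine K11, read 9.51, 9.66 and 8.06 in wild type and 7.90, 8.90 and 8.84 in Chrm1-/-. Wild type replicate 3 and Chrm1-/- replicate 1 were both low, and the difference of -0.53 had an interval from -1.73 to 0.67. Without wild type replicate 3 the Ube2s difference was -1.04, with an unadjusted p of 0.0281 and an adjusted p of 0.955 in limma, and without Chrm1-/- replicate 1 it was -0.21. Its size thus rested on single arrays in both directions.

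Among E2 enzymes of DNA repair, Ube2t, which serves the Fanconi anaemia ligase at DNA crosslinks, read 7.75, 7.44 and 7.61 in wild type and 7.25, 7.87 and 7.03 in Chrm1-/-. Chrm1-/- replicate 2 was the highest of the 6, and the difference was -0.22. It was -0.46 without that array, with an unadjusted p of 0.0304 and an adjusted p of 0.9997 in limma, and -0.04 without Chrm1-/- replicate 3, with an unadjusted p of 0.867. Ube2a and Ube2b are the mouse counterparts of yeast Rad6, which marks histone H2B and the replication clamp. Ube2a read 9.10, 9.02 and 7.06 in wild type and 7.89, 8.28 and 8.94 in Chrm1-/-. Its means differed by -0.02, but wild type replicate 3 lay far below the other arrays, and without it the difference was -0.69. Ube2b read 9.27, 9.31 and 8.66 in wild type and 8.82, 9.06 and 9.49 in Chrm1-/-, a difference of 0.04, and wild type replicate 3 was again the lowest array.

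The E2 enzymes that build K48 chains included both the steadiest member and one of the lowest in the ranking. Ube2k read between 11.73 and 11.85 on all 6 arrays, and its difference of 0.04 had an interval from -0.19 to 0.27. Of all tested genes 1.39% had a smaller SD within groups than Ube2k. Ube2g1, which extends K48 chains with cullin ligases, read 10.15, 9.81 and 9.35 in wild type and 9.49, 9.20 and 9.26 in Chrm1-/-. Its groups overlapped at wild type replicate 3, and the difference of -0.45 ± 0.22 (SE) had an unadjusted p of 0.0833 and an adjusted p of 0.996 in limma. Ube2r2, a relative of the cullin-ligase E2 Cdc34, differed by -0.19, and Ube2h, the E2 of the ligase complex CTLH, by 0.03 in the cluster used and -0.05 in its other cluster. Ube2j1, anchored in the membrane of the endoplasmic reticulum, differed by -0.06, and Ube2j2, its relative, lay below the signal needed for testing.

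**Figure D3:**
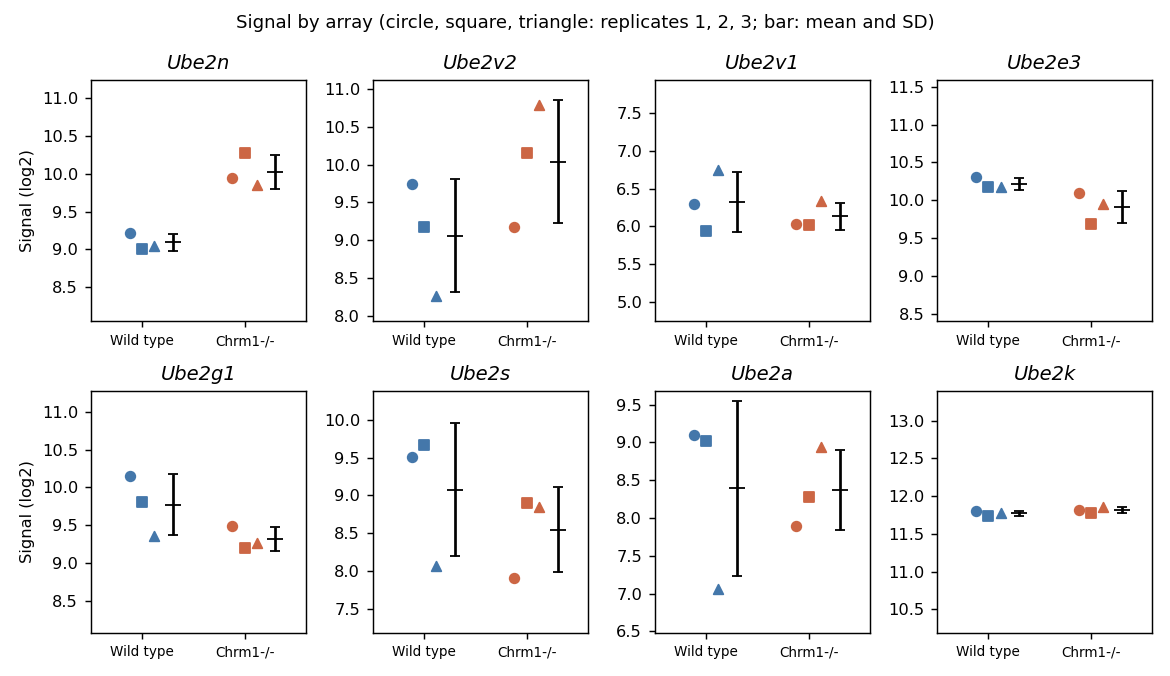
Each panel shows the log2 signal of 1 Ube2 gene on the 6 arrays, with wild type in blue, Chrm1-/- in orange, replicates 1, 2 and 3 as circle, square and triangle, and the mean and SD beside them. All panels span the same number of log2 units; Ube2n shows 2 separate groups with 9.22 as the highest wild type and 9.85 as the lowest Chrm1-/- value, Ube2k hardly varies, and Ube2a, Ube2s and Ube2v2 have their lowest or second lowest value in wild type replicate 3.

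E2 enzymes that carry ubiquitin-like proteins instead of ubiquitin had small differences. Ube2l6, which carries the interferon-induced modifier Isg15, read 7.29, 7.0 and 7.38 in wild type and 7.70, 7.13 and 7.13 in Chrm1-/-. The difference was 0.10, with an interval from -0.39 to 0.58. Ube2f, which carries Nedd8, differed by 0.01, with an interval from -0.35 to 0.37. For both genes the groups overlapped.

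Of the remaining members, Ube2l3, the E2 of the linear ubiquitin chain ligase and of parkin, read 12.03, 12.02 and 11.77 in wild type and 11.79, 11.88 and 12.02 in Chrm1-/-. The cluster used differed by -0.04, with an interval from -0.35 to 0.27, and the other clusters by -0.15 and -0.20. Ube2z, which takes its charge from the E1 enzyme Uba6, had one of the widest spreads, from 7.62 to 9.70, with both extremes in Chrm1-/-. Ube2o, a large enzyme that combines E2 and E3 activity, differed by -0.02, Ube2q1 by -0.24, Ube2q2 by 0.10 and Ube2ql1 by 0.13. The groups of each of these genes overlapped.

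The signal filter left out 7 members. Ube2e2 and Ube2w, with means of 6.90 and 6.93, lay just above it, and Ube2cbp, at 6.60, was the nearest below. Ube2cbp read 6.40, 6.02 and 6.42 in wild type and 6.96, 6.54 and 7.25 in Chrm1-/-, so its groups did not overlap. Fitted with no filter, it differed by 0.64 with an unadjusted p of 0.0230 and an adjusted p of 0.997 in limma. The others below the filter were Ube2v1, Ube2j2, Ube2d2b, Ube2u, Ube2dnl1 and Ube2dnl2, with means between 3.99 and 6.42, and their groups overlapped.

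The partners of the family were examined through 14 lists of pathway genes, of which 153 genes besides the Ube2 members were on the array and 141 were tested. In limma 0 of the 141 passed an adjusted p of 0.05, and 6 had an unadjusted p under 0.05, 3 higher and 3 lower. That was 4.26% of them, where all tested genes gave 2.99%. Groups did not overlap for 6.38% of them, 5 genes higher and 4 lower, beside 5.79% of all tested genes. Lack of overlap in single partners below is thus near the background. The median difference was -0.03, with 66 genes higher and 75 lower in Chrm1-/-. The lists therefore lay close to all tested genes, and they were chosen with earlier results of these data known.

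Genes that act with Ube2n on K63 chains went in no common direction. Of 17 tested K63 ligases 7 were higher and 10 lower, with a median difference of -0.08. Rnf8, the ligase that works with Ube2n at broken DNA, read 8.19, 7.63 and 8.45 in wild type and 7.01, 7.63 and 7.32 in Chrm1-/-. It differed by -0.77 ± 0.26 (SE), with an unadjusted p of 0.0239 and an adjusted p of 0.996 in limma, and 1 Chrm1-/- array equalled the lowest wild type array. Rnf168, which acts after Rnf8, differed by -0.28, Birc3, a ligase of TNF receptor signalling, by 0.31 and Traf6, the ligase of Toll-like receptor signalling that uses Ube2n, by -0.34.

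Of 10 tested readers and kinases that K63 chains assemble, 5 were higher and 5 lower, with a median of -0.01. Map3k7, the kinase TAK1, differed by -0.39, Bcl10, a signalling adaptor, by 0.22 and Irak1, a kinase of Toll-like receptor signalling, by 0.25. Of 11 tested genes that remove or restrain K63 chains 7 were higher, with a median of 0.03. Otud5, a deubiquitinase of interferon signalling, read 7.93, 8.32 and 8.02 in wild type and 8.52, 8.58 and 8.62 in Chrm1-/-, with no overlap. Its difference of 0.48 ± 0.13 (SE) had an unadjusted p of 0.0109 and an adjusted p of 0.996 in limma. Otub1, which binds and inhibits Ube2n, differed by -0.04, and Cyld, a K63-directed deubiquitinase, by 0.17.

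Target genes of NF-kB, a transcription factor that K63 signalling can activate, were split evenly, with 6 of 12 tested members higher and a median difference of -0.01. The chemokine gene Ccl3 was the one with an unadjusted p under 0.05. It differed by 0.62, with an unadjusted p of 0.00746 and an adjusted p of 0.996 in limma, and so did not pass. Ccl4 differed by 0.30 and the NF-kB subunit gene Rel by -0.57. The 5 tested genes of the linear chain list had a median of 0.07, and Rnf31, the catalytic subunit of the linear chain ligase, differed by 0.29 with groups that did not overlap.

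Upstream in the relay, 3 of 6 tested E1 enzyme genes were higher and 3 lower. Uba3, the catalytic subunit of the E1 for Nedd8, read 10.76, 10.89 and 10.82 in wild type and 10.65, 10.58 and 10.37 in Chrm1-/-, with no overlap. Its difference of -0.29 ± 0.12 (SE) had an unadjusted p of 0.0488 and an adjusted p of 0.996 in limma. Atg7, the E1 of autophagy, differed by 0.45. Of 8 tested modifiers 3 were higher, and Urm1, a modifier that also carries sulfur for transfer RNA, differed by -0.57 with an unadjusted p of 0.0199 and an adjusted p of 0.996 in limma. E2 genes of other names had 4 of 8 members higher and a median of -0.01, with Atg10, an E2 of autophagy, at -0.95 and wide scatter in Chrm1-/-.

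Partners of the other E2 enzymes gave similar counts. Subunits and regulators of the anaphase-promoting complex had 7 of 17 members higher and a median of -0.03, with Cdc23 at 0.42 and Anapc2 at -0.26. Fanconi and Rad6 partners had 7 of 14 higher and a median of -0.05, with Fancd2, the protein that Ube2t and its ligase modify, at -0.44. Cullin and neddylation genes had 4 of 12 higher and a median of -0.04, SUMO pathway genes 5 of 11 and -0.01, and Isg15 pathway genes 2 of 5 and -0.11. In these 4 lists and that of the anaphase-promoting complex 0 members had an unadjusted p under 0.05 in limma, beside 2.99% of all tested genes, which for lists of this size is near the background. Genes of endoplasmic reticulum degradation had 6 of 12 higher and a median of -0.01, and Aup1, which recruits Ube2g2 to the membrane, differed by 0.41 with an unadjusted p of 0.0389 and an adjusted p of 0.996 in limma.

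**Figure D4:**
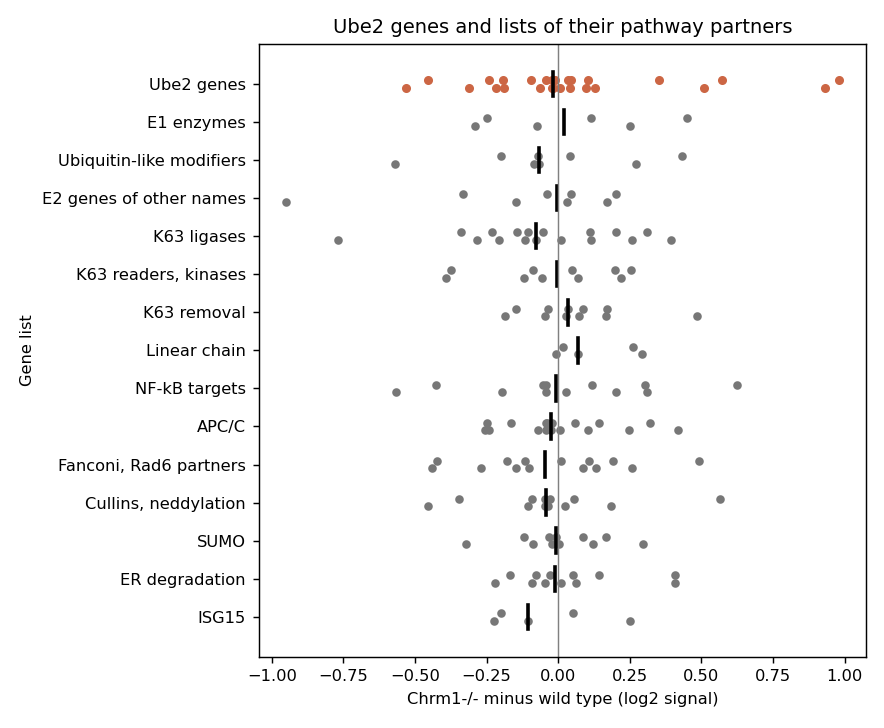
Each row is a gene list, each point the genotype difference of 1 tested gene (Chrm1-/- minus wild type, log2 units), and the black bar is the median, taken without Ube2n for the Ube2 genes (orange). List medians lie between -0.11 and 0.07, and the 2 highest points in the plot are Ube2v2 at 0.98 and Ube2n at 0.93.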

How the data were processed

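The authors deposited a table of log2 signals with 2 decimals, 1 per cluster of probes on each array. Per the series design text they used Affymetrix analysis software; how it summarized and normalized the probes is not stated in the sources used here. The log2 scale was inferred from the range, 3.02 to 13.67, and from array medians between 6.49 and 6.57, and no further normalization was applied. Clusters with several symbols were left out, and the brightest cluster stood for a gene. Genes whose mean reached the median over genes, 6.77, were tested with limma 3.58.1 in R 4.3.3 (lmFit, eBayes; two-sided, Benjamini-Hochberg over all tested genes, 95% intervals). The number of arrays limits the precision; the median SE was 0.17. Upstream windows came from RefSeq tables (GRCm38.p6).

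Members, lists and tests were chosen with earlier results of these data known. Values are given by array for Ube2n, its partners, a fixed set of members by role, and any tested member with an unadjusted p under 0.05, no overlap or a difference of at least 0.58; Ube2d1, Ube2g1, Ube2k and Ube2cbp were added after their values were seen, as were Traf6, Rel, Otub1 and Ube2s's upstream window. From each partner list, names come from the 3 members of smallest unadjusted p. The fit was tested on simulated data. Alternatives covered the filter, normalization, clusters, variance model, the replicate number as a block and leaving out each array. Python 3.11.15 with pandas 2.3.3 and matplotlib 3.10.9 searched motifs and drew plots.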

Additional observations from a re-analysis of the deposited data

How the results depend on the processing

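No Ube2 gene passed an adjusted p of 0.05 in limma under any of the 14 alternatives. The Ube2n difference lay between 0.80 and 1.02 on leaving out each array. It was 0.94 with quantile normalization and 0.92 with median centring, and the other alternatives leave it at 0.93 by construction. Because the family was chosen on this value, these figures are no support for it. The number of the other Ube2 genes with an unadjusted p under 0.05 was 1 with no filter on dim genes (Ube2cbp) and 1 with the replicate number as a block (Ube2d1, at 0.57), and ran from 0 to 2 on leaving out each array. Their median difference ran from -0.13, without wild type replicate 3, to 0.042, without Chrm1-/- replicate 2. Over all tested genes the count at that threshold was 567 of 22180 with no filter, beside 1 of 32 other Ube2 genes. It was 396 of 11094 with the block, beside 1 of 25. It was 169 of 5547 with the filter at the 75th percentile, and between 335 and 522 of 11094 on leaving out each array. The filters change how many genes are tested, and the cause of the rest was not tested. Deviations from the group means of same-numbered arrays correlated at -0.03, 0.01 and -0.01, so no pairing by replicate number was visible. Whether same-numbered arrays were prepared together is not stated in the sources used here. The block changed no other call among the Ube2 genes. A tally of values under alternatives covered the lists and the tested members given by array under the fixed rule, without Ube2n. In it, 479 values moved by less than the SD within groups, which is wide for some members. The members among these also kept an unadjusted p of at least 0.05 in limma, whereas lists were judged on the SD alone. Another 2 moved by more, and 4 gained an unadjusted p under 0.05 in limma. Both that moved by more were the median of the B cell markers, without wild type replicate 2 and without Chrm1-/- replicate 1. Outside the tally, Ube2g1 without wild type replicate 3 and Ube2d1 with the block also gained one. Among the moves smaller than that SD, Ube2a went from -0.02 to -0.69 and Ube2v2 from 0.98 to 0.58 without wild type replicate 3. With 3 arrays a group, differences near the spread of Ube2a or Ube2v2 could not be told from 0.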

Other observations

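Transcript clusters that the annotation assigns to a Ube2 gene together with another gene stayed out of the comparison, 4 in number, and their probes cannot be credited to either gene. The cluster shared by Ube2e1 and Nkiras1 read 9.37 in wild type and 9.44 in Chrm1-/-. The cluster shared by Ube2g2 and Sumo3 read 8.10, 7.20 and 6.20 in wild type and 6.76, 6.22 and 6.76 in Chrm1-/-, and the one shared by Ube2g2 and the microRNA gene Mir1930 read 5.36, 5.55 and 5.53 and then 6.55, 5.44 and 6.73. Both clusters that name Ube2g2 overlapped between the groups and differed in opposite directions, by -0.59 and 0.76. The cluster shared by Urgcp and the pseudogene Ube2d-ps read 7.35, 7.60 and 7.40 in wild type and 7.71, 7.64 and 7.64 in Chrm1-/-, with no overlap.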
